A study of Mus musculus with 70 samples.

Results

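The xenobiotic enzymes of the lung described here were 9 genes chosen by symbol from a count table of 24420 genes: the cytochromes P450 Cyp1a1, Cyp1b1, Cyp2b10, Cyp2a5 and Cyp4b1, the carboxylesterases Ces1d and Ces1f, the flavin monooxygenase Fmo2 and the reductase Por. The rule used symbols alone, and all 9 were found and passed the filter on low counts in the fits the results come from. When only the compared groups were fitted, Ces1f was filtered out in 6 comparisons. RNA was sequenced from a piece of lung of 70 male mice bred from heterozygous 129S-Slc26a4tm1Erg/AjgJ parents, as homozygous knockouts (Pds-/-) or homozygous wildtypes (Pds+/+). The knockout is inherited through the germline and targets Slc26a4, the gene of the anion exchanger pendrin, in all tissues. Mice entered whole-body chambers when about 3 months old and breathed Min-U-Sil5 crystalline silica at 15 mg/m3, or air, on 4 days for 6 hours a day, and lungs were collected 1 day, 3 months or 9 months later. At each time there were knockout silica, knockout air, wildtype silica and wildtype air mice. Of these 12 groups 10 held 6 mice, and the 2 wildtype groups collected last held 5. The 3 times therefore differ in the age of the mice as well as in time since exposure, and these cannot be told apart.

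Cytochromes P450 are haem enzymes that add oxygen to foreign compounds and to fatty acids and steroids, and the microsomal forms take their electrons from NADPH through the reductase encoded by Por. Flavin monooxygenases oxidise nitrogen and sulphur in drugs and pesticides, and carboxylesterases split ester bonds in drugs and lipids. In rodent lung such enzymes are known mainly from club cells of the airways and also from alveolar and endothelial cells. Cyp1a1 and Cyp1b1 are standard targets of the aryl hydrocarbon receptor AHR, which binds DNA with ARNT at sites built around GCGTG, while Cyp2b10 is the standard target of the nuclear receptor CAR in liver.

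The start regions of 3 members are shown as a description. These members are Cyp1a1 and Cyp1b1, standard AHR targets that moved in opposite directions over time, and Cyp4b1, the member lowered by silica in the most comparisons. Each region is the 250 bases before the RefSeq start on GRCm38.p6, read 5′ to 3′ on the strand of the gene, with GCGTG or its reverse complement CACGC in capitals. The regions lie at chr9:57697363-57697612 (plus strand, Cyp1a1), chr17:79715062-79715311 (minus strand, Cyp1b1) and chr4:115647722-115647971 (minus strand, Cyp4b1).
Cyp1a1: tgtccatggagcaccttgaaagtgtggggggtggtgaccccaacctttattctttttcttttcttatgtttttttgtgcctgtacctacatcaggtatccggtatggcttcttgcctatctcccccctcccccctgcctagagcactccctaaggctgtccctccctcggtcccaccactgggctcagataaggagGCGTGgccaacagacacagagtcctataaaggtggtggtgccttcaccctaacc
Cyp1b1: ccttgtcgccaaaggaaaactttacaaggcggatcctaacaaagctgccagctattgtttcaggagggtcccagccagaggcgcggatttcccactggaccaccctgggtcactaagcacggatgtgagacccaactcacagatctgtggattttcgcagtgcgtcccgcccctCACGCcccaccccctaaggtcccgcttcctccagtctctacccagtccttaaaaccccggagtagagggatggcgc
Cyp4b1: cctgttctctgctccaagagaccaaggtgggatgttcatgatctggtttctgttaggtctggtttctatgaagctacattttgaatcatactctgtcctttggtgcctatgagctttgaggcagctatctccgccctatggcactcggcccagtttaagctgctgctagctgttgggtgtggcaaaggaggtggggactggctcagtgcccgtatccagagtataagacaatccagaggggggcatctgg
The letters GCGTG occurred on either strand once in Cyp1a1, with the first base at -54, and once in Cyp1b1, at -76, counted from the base before the start as -1. They occurred 3 times in the window of Por and 2 times in that of Cyp2b10, and were not found in the windows of Cyp4b1, Cyp2a5 or Fmo2. Of all 32851 promoter windows of this length in the table, 28.2% held them, so a match is common and describes only the letters. AHR binding was not measured, and sites further upstream lie outside the windows. The RefSeq table matched 7 of the 9 members, and Ces1d and Ces1f had no entry.

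Counts per library summed to between 802478 and 5596316, with a median of 2183480, and values below are counts scaled to library size and composition (normalised CPM). The gene Lars2 alone took from 1.74% of counts (replicate 3 of knockout silica at 1 day) to 14.1%. Its share differed between some groups, for example 8.58% to 14.1% in wildtype and 5.26% to 7.80% in knockout air lungs of 9 months. The part of this in the results was not tested. The alveolar markers Sftpc and Ager and the airway marker Scgb1a1 were present in every library, at a lowest value of 4102, 839 and 3888 CPM. Slc26a4 ranged from 3.37 to 36.3 CPM in knockout silica, 0.98 to 51.5 in knockout air, 20.4 to 78.8 in wildtype silica and 4.21 to 73.9 CPM in wildtype air mice. Within an exposure and a time, all knockout mice lay below all wildtype mice in 5 of 6 pairs of groups. In the air mice of 9 months the libraries labelled knockout replicate 4 and 5 held 51.5 and 16.7 CPM, and wildtype mice held 6.40, 10.3, 16.8, 21.5 and 73.9 CPM. In that air group and its wildtype counterpart, 3 libraries (knockout replicates 4 and 5, wildtype replicate 5) held 2985 to 7981 CPM of the macrophage gene Chil3, against 671 to 1079 CPM in the other 8. These 3, together with replicate 3 of knockout silica at 1 day and replicate 3 of knockout silica at 3 months, differed most from the other libraries of their groups. Some enzyme results are given with and without them, and others, such as the genotype estimates of 9 months, only with them. Sums and calls of cell type markers include them. Since whole pieces of lung were sequenced, fewer cells of a type and less RNA per cell cannot be told apart in any value below. Replicates are separate mice by their animal numbers.

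Set against the combined exon length of each gene, the members fell into high, middle and low levels. The median over 70 lungs was 224 CPM per kilobase for Cyp4b1, 180.5 for Ces1d and 178 for Fmo2, and 99.6 for Cyp2b10. Por reached 57.7 and Cyp2a5 28.1 CPM per kilobase, whereas Cyp1b1 reached 2.82, Cyp1a1 2.70 and Ces1f 1.35. The last 3 were therefore read from few counts, 11 to 85 per library for Cyp1b1, 4 to 80 for Cyp1a1 and 1 to 24 for Ces1f, against 812 to 5907 for Fmo2. Reads of Cyp2a5, Cyp2b10, Ces1d and Ces1f can be shared with close copies in their gene clusters, and the counting rule for such reads is not given in the sources used here.

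**Figure D1:**
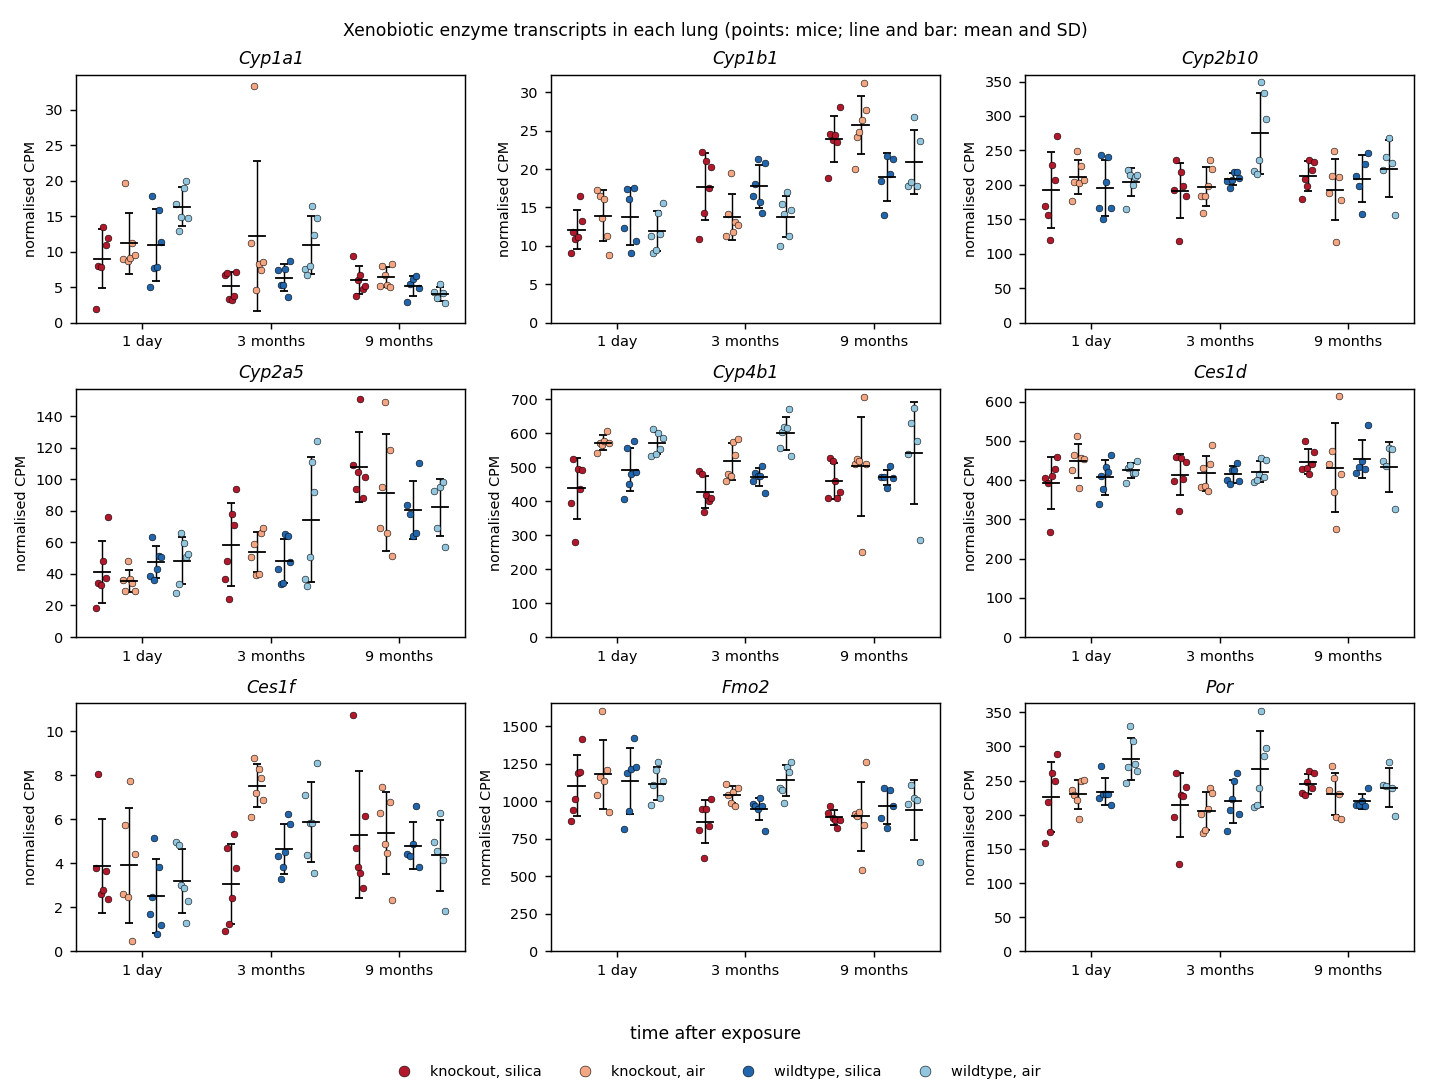
Normalised CPM of the 9 enzymes in each of 70 lungs (vertical axis, linear from 0) by time after exposure (horizontal axis), for knockout silica, knockout air, wildtype silica and wildtype air mice in that order; points are mice, lines and bars the mean and SD. Ces1d stayed between group means of 394 and 454 CPM, while Cyp1a1 ran from a group mean of 4.02 to 16.3 CPM and Cyp1b1 from 11.9 to 25.7 CPM.

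The members differed in how far their 12 group means spread. Ces1d was the flattest, with a highest mean 1.15 times the lowest, and Fmo2, Por, Cyp4b1 and Cyp2b10 ranged 1.37, 1.37, 1.40 and 1.43 times. Cyp1b1 ranged 2.16 times, Ces1f 2.97, Cyp2a5 3.03 and Cyp1a1 4.07 times. When the 12 groups were ordered by mean, none of the 11 neighbouring pairs was separate in any member. Neighbours in such an order are the groups closest in mean, so their overlap was likely beforehand and cannot show whether the order has steps.

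Silica against air is the exposure question of the design, and Cyp4b1 was the member called most often. Cyp4b1 encodes a P450 abundant in lung that hydroxylates fatty acids and activates the lung toxin ipomeanol, and lies at chr4:115624725-115647723 on the minus strand of GRCm38. In knockout lungs at 1 day the lowest, median and highest values were 281, 465 and 525 CPM after silica and 541, 572 and 607 CPM in air. All 6 silica mice lay below all 6 air mice. The means were 438 ± 90.0 CPM after silica and 573 ± 21.2 CPM in air (SD, n = 6 each), and the log2 fold change was -0.39 with a standard error of 0.10 (adjusted p = 0.0272, edgeR quasi-likelihood test with Benjamini-Hochberg adjustment over all genes). Cyp4b1 was the only 1 of 9 members called in this comparison, in which 1.93% of all 12558 genes tested were called. Without silica replicate 3, the mouse at 281 CPM, the fall was 0.29 on the log2 scale with adjusted p = 0.0284. The call was lost without air replicate 2, 4 or 5 or silica replicate 1, with adjusted p from 0.0535 to 0.0808 and log2 fold changes from -0.39 to -0.36.

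At 3 months Cyp4b1 was lower after silica in both genotypes. Wildtype mice held 424, 475 and 503 CPM (lowest, median, highest) after silica, against 533, 609.6 and 672 CPM in air, again with no overlap. The log2 fold change was -0.35 ± 0.07, with means of 470.2 ± 26.5 CPM after silica and 600.1 ± 49.3 CPM in air (SD, n = 6 each, adjusted p = 0.00292 by edgeR), and it was called with each of the 24 libraries left out. It was the single member called, where 2.96% of all genes were called. Knockout mice held 369.7, 414 and 489 CPM after silica and 459, 509 and 584 CPM in air. Here 4 of 6 silica mice lay below all air mice, and the log2 fold change was -0.28 ± 0.07 (adjusted p = 0.0201, edgeR). Without air replicate 4 or 6 it was -0.25 or -0.24 with adjusted p = 0.0577 or 0.0590, and without silica replicate 3 it was -0.24 and still called. When the spread was estimated from all 70 libraries, the 3 Cyp4b1 calls were lost at nearly the same fold changes, with adjusted p = 0.140 in knockout lungs at 1 day, 0.279 in knockout and 0.199 in wildtype lungs at 3 months. With the compared groups alone, those in knockout lungs were lost at 1 day (adjusted p = 0.134) and at 3 months (0.0769).

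The same gene did not pass the test in wildtype mice at 1 day or at 9 months in either genotype. At 1 day in wildtype lungs the estimate was -0.21 ± 0.10 (adjusted p = 0.325, edgeR). At 9 months knockout silica mice held 409.9 to 528 CPM and knockout air mice 250.2 to 708 CPM, an estimate of -0.13 ± 0.17. Wildtype mice of 9 months held 439.9, 467, 470.4, 472 and 504 CPM after silica and 287, 540, 578, 631 and 674 CPM in air, an estimate of -0.20 ± 0.19 (adjusted p = 0.887). The low air values, 250.2 and 287 CPM, belonged to 2 of the 3 mice with high Chil3, while the third, knockout replicate 5, held 708 CPM, the highest value of this gene in any lung. Without those 3 mice the wildtype estimate was -0.37 with adjusted p = 0.0104, and the knockout estimate -0.16 with adjusted p = 0.409. The silica effects of knockout and wildtype lungs on Cyp4b1 did not differ past the threshold at any time, with differences of -0.18 ± 0.14 at 1 day, 0.07 ± 0.10 at 3 months and 0.07 ± 0.26 at 9 months.

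**Figure D2:**
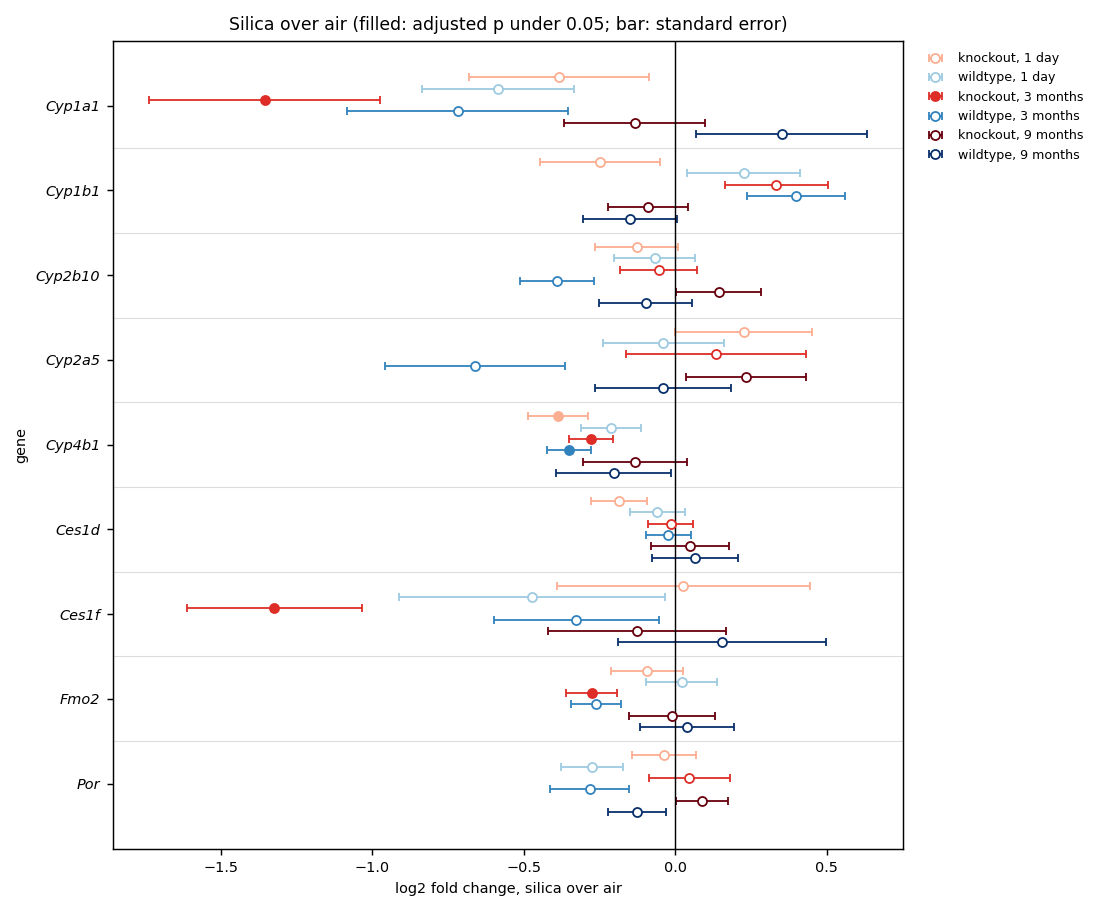
Log2 fold changes of silica over air (horizontal axis) for the 9 enzymes (vertical axis) in knockout and wildtype lungs at each of the 3 times; bars are standard errors and filled points have an adjusted p under 0.05. The 6 filled points are all below 0: Cyp4b1 in 3 comparisons and Cyp1a1, Ces1f and Fmo2 in knockout lungs at 3 months.

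In knockout lungs at 3 months 4 of 9 members were called for silica, all lower, where 4.8% of 12647 genes were called and 1.78% were called lower. That count was 2 with voom quality weights and 1 with the compared groups alone, against 2 and 3 in wildtype lungs, so it does not rank the genotypes. Over all genes, the compared groups alone called 319 in knockout lungs, against 607 in the main fit. Voom called 573 in wildtype lungs, against 374 in the main fit. Beside Cyp4b1 the members called in the main fit in knockout lungs were Ces1f, Cyp1a1 and Fmo2. Ces1f, a carboxylesterase of the Ces1 cluster (chr8:93256236-93279747, minus strand), held 0.951, 3.12 and 5.33 CPM (lowest, median, highest) after silica and 6.11, 7.54 and 8.76 CPM in air. The groups did not overlap, on 2 to 14 counts per silica library and 12 to 21 per air library. The means of 3.08 ± 1.81 CPM after silica and 7.52 ± 0.978 CPM in air (SD, n = 6 each) gave a log2 fold change of -1.32 ± 0.29 (adjusted p = 0.00493, edgeR), which was called with each library left out. In wildtype lungs Ces1f held 3.29 to 6.25 CPM after silica and 3.56 to 8.55 CPM in air, an estimate of -0.33 ± 0.27. The difference between genotypes in this silica effect was -0.996 ± 0.403 (unadjusted p = 0.0192, adjusted p = 0.574, edgeR), so it did not pass.

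Cyp1a1, which oxidises polycyclic aromatic hydrocarbons (chr9:57687928-57703824, plus strand), held 3.24, 5.23 and 7.19 CPM after silica and 4.63, 8.39 and 33.4 CPM in air in the same knockout comparison. The groups overlapped, and the air mean of 12.3 ± 10.6 CPM rested on replicate 2 at 33.4 CPM, the highest value of this gene in any lung. With it the log2 fold change was -1.36 ± 0.38 (adjusted p = 0.0330, edgeR). Without it the estimate was -0.69 with adjusted p = 0.258, and the call was also lost without silica replicate 3, 4 or 5 (adjusted p from 0.0610 to 0.0804), with voom quality weights (0.111) and with the compared groups alone (0.0942). In wildtype lungs at 3 months Cyp1a1 held 3.57, 6.41 and 8.67 CPM after silica and 6.75, 10.1 and 16.5 CPM in air, an estimate of -0.72 ± 0.37 that did not pass (adjusted p = 0.402). At 1 day wildtype lungs held 5.08 to 17.9 CPM after silica and 12.8 to 20.0 CPM in air, an estimate of -0.58 ± 0.25 (adjusted p = 0.283).

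Fmo2, a flavin monooxygenase of mouse lung (chr1:162874317-162898726, minus strand), held 619, 892 and 1016 CPM after silica and 969, 1055 and 1117 CPM in air in knockout lungs at 3 months. Of the 6 silica mice 5 lay below all air mice. The log2 fold change of -0.28 ± 0.08 stood at the threshold (adjusted p = 0.0497, edgeR) and was lost in 20 of the 24 fits without a library, with adjusted p up to 0.104. It was also lost with a filter at a mean of 1 CPM (adjusted p = 0.0506), voom quality weights (0.0627), the compared groups alone (0.140) and all 70 libraries (0.274). In wildtype lungs 802, 967 and 1022 CPM after silica and 989, 1142 and 1259.99 CPM in air gave a close estimate, -0.26 ± 0.08, just outside it (adjusted p = 0.0874), and without knockout silica replicate 3 that adjusted p was 0.0112. Over the alternatives it ran from 0.0153 (compared groups alone) to 0.409, with 0.0176 by voom quality weights. The test of the difference gave -0.01 ± 0.12.

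Markers of several cell types moved in the same 3-month comparisons. In knockout lungs 4 of 7 macrophage markers rose with silica (Marco, Lyz2, Cd68 and Chil3) and Siglecf fell, with a summed level of 4212 to 6101 CPM after silica and 3270 to 3989 CPM in air. The 6 alveolar type 1 markers summed to 2474 to 3993 CPM after silica and 4086 to 4531 CPM in air, and 3 of them (Akap5, Hopx and Clic5) fell. Of 7 alveolar type 2 markers Lamp3 and Sftpa1 rose and Sftpb fell, in knockout and also in wildtype lungs, with a sum of 11672 to 13126 CPM after silica and 11448 to 13576 CPM in air in knockout lungs. The neutrophil marker Cxcr2 and the fibroblast marker Mfap4 rose in knockout lungs. The 10 endothelial markers summed to 3496 to 4104 CPM after silica and 3986 to 4322 CPM in air, with Kdr lower. Beside Ces1f, the 8 hepatocyte markers summed to 190.7 to 406 CPM after silica and 242 to 651 CPM in air, with Fabp1 lower among the 3 tested (-1.03 ± 0.29). In wildtype lungs Fabp1 was lower too (-1.22 ± 0.32). There 4 of 7 heart muscle markers fell, with a sum of 207 to 462 CPM after silica and 368 to 1179.8 CPM in air, and 2 of 3 fat cell markers tested, with a sum of 19.3 to 31.2 CPM after silica and 32.8 to 186 CPM in air. Of the 8 fat cell markers listed, Lep, Retn and Ucp1 were at 0 in at least every other library. In wildtype lungs the macrophage markers summed to 3400.3 to 4710 CPM after silica and 3079 to 3414 CPM in air, and the alveolar type 1 markers to 3605 to 4092 CPM after silica and 4127 to 4421 CPM in air. At 1 day in knockout lungs, beside the fall of Cyp4b1, the macrophage markers summed to 4064 to 4906 CPM after silica and 3217 to 3690 CPM in air, and the alveolar type 1 markers to 3824 to 4387 CPM after silica and 4015 to 4591 CPM in air. Of the 8 club cell markers, Bpifa1 was at 0 in at least every other library of the 70, and Cyp2f2 fell with silica in knockout lungs at 3 months and in both genotypes at 1 day. Hp, in the same list, rose at 1 day in knockout (0.51 ± 0.09) and wildtype lungs (0.45 ± 0.09). The club cell markers summed to 5030 to 11819 CPM after silica and 11634 to 13277 CPM in air in knockout lungs at 3 months, and to 10301 to 12951 CPM after silica and 9628 to 14081 CPM in air at 1 day. Replicate 3 of knockout silica at 3 months, which stands apart, held 839 CPM of Ager, 3888 of Scgb1a1 and 1404 of Chil3. The other 5 mice held 1167 to 1313, 7845 to 9591 and 393 to 699 CPM. Sums were not computed without this mouse, so their extremes in that group may rest on it. In these knockout lungs Lyz2 alone averaged 3769 CPM after silica and 2822 CPM in air, most of the macrophage sums. Over both genotypes at 3 months Trf averaged 210 CPM after silica and 232 CPM in air. The median hepatocyte sums in knockout lungs were 218 and 270 CPM, so Trf made up most of them. Scgb1a1 averaged 9428 CPM after silica, against a median club cell sum of 10763 CPM in knockout lungs. The part of these markers in the enzyme results was not tested.

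The other members did not pass the silica test in any of the 6 comparisons. Por (chr5:135670033-135735326, plus strand) had its lowest adjusted p at 1 day in wildtype lungs, with 214, 230.2 and 272 CPM after silica and 247, 272 and 330.4 CPM in air. That estimate was -0.27 ± 0.10 (adjusted p = 0.190, edgeR), in a comparison with no member called and 2.37% of genes called. Here 3 members had an unadjusted p under 0.05 (share of all genes not computed), and voom with quality weights called 2 of them, Cyp4b1 and Por. Over all genes voom called 761 here and edgeR with the compared groups alone 641, against 298 in the main fit. With the compared groups alone edgeR called Por as well (adjusted p = 0.0165), and the highest adjusted p of Por over the alternatives was 0.267. In wildtype lungs at 3 months Cyp2b10 (chr7:25897620-25926624, plus strand) held 195 to 218 CPM after silica and 216 to 349 CPM in air, an estimate of -0.39 ± 0.12 (adjusted p = 0.0828). It passed in 3 of the 24 fits without a library, those without air replicate 1 or 2 or knockout silica replicate 3 (adjusted p = 0.0491, 0.0374 and 0.0163). It also passed with the compared groups alone (adjusted p = 0.0252, edgeR), and the other alternatives gave an adjusted p of up to 0.203. Its wildtype air mice split into 3 at 216 to 236 CPM and 3 at 295 to 349 CPM. The silica estimates of Cyp1b1 at 3 months were 0.33 ± 0.17 in knockout and 0.40 ± 0.16 in wildtype lungs (adjusted p = 0.317 and 0.230). Ces1d (chr8:93166068-93197838, minus strand) had estimates of -0.02 ± 0.07 in knockout and -0.02 ± 0.07 in wildtype lungs at 3 months, the smallest of the set.

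At 9 months no member was called for silica in either genotype and none had an unadjusted p under 0.05 in edgeR, where 0.179% of 12826 genes in knockout and 0.0234% in wildtype lungs were called. DESeq2's Wald test and voom with quality weights also called 0 members in these 2 comparisons. In knockout lungs they called 54 and 143 of all genes, against 23 by edgeR. In wildtype lungs voom called 42, against 3 by edgeR. Fmo2 held means of 893 ± 50.7 CPM after silica and 899 ± 228 CPM in air in knockout lungs (SD, n = 6 each). In wildtype lungs its means were 967 ± 117 CPM after silica and 942 ± 200 CPM in air (SD, n = 5 each). Silica and air mice overlapped in every member at this time.

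The knockout against wildtype comparison asks whether loss of pendrin alone changes these enzymes, and no member passed it in any of the 6 pairs of groups. The share of all genes called among air mice was 0.0478% at 1 day, 0.142% at 3 months and 0.0156% at 9 months, and among silica mice it was 0.00796%, 0.174% and 0% in that order. Across the 3 tests of whether the silica effect differed by genotype, 0 members and 0% of genes were called, with 0, 1 and 0 members at an unadjusted p under 0.05. In edgeR, members with an unadjusted p under 0.05 numbered 2, 3 and 1 among air mice of the 3 times, and 0, 0 and 1 among silica mice. The share of all genes at that unadjusted limit was not computed, so these counts have nothing to be set against. In air at 3 months DESeq2's Wald test called 76 and voom 108 of all genes, against 18 by edgeR. DESeq2's Wald test called 1 member and voom 1, in both cases Cyp2b10 in air at 3 months. That gene held 159, 191 and 236 CPM in knockout lungs and 216, 265 and 349 CPM in wildtype lungs, an edgeR estimate of -0.47 ± 0.12 (adjusted p = 0.0911, and 0.0162 without knockout silica replicate 3). Por in the same mice was estimated at -0.37 ± 0.13 (adjusted p = 0.267), and at 1 day in air at -0.29 ± 0.10 (adjusted p = 0.323). With the compared groups alone the adjusted p of Por at 1 day in air was 0.0481 by edgeR, and over the alternatives it reached 0.392. For Ces1d the genotype estimates in air were 0.07 ± 0.09, -0.01 ± 0.07 and -0.0046 ± 0.14 over the 3 times. The library labelled knockout with high Slc26a4 stands in the air group of 9 months, so directions there rest partly on it.

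Over time Cyp1a1 and Cyp1b1 changed in opposite directions, tested as the mean of both genotypes in 1 model of all 70 lungs. Cyp1b1, which oxidises polycyclic hydrocarbons and steroids (chr17:79701537-79715061, minus strand), averaged 23.5 ± 4.51 CPM in 11 air mice of 9 months and 13.8 ± 2.71 CPM in 12 air mice of 3 months (SD). The lowest mouse of 9 months, at 17.8 CPM, lay above all but 1 mouse of 3 months, at 19.5 CPM. The log2 fold change was 0.75 ± 0.12 (adjusted p = 6.89e-07, edgeR). Cyp1a1 averaged 5.31 ± 1.72 CPM in the air mice of 9 months and 11.6 ± 7.68 CPM in those of 3 months, a log2 fold change of -1.19 ± 0.25 (adjusted p = 0.000123). Without the knockout air mouse at 33.4 CPM this was -0.86 with adjusted p = 0.00221. In this comparison 4 of 9 members and 29.2% of all genes were called, so being called is common here. Without the 3 air mice with high Chil3 the calls of Cyp1b1 and Cyp1a1 held, at estimates not given here. Genes called were then 2187, against 3875. For Cyp1b1 those mice held 23.7 CPM in wildtype and 26.4 and 31.2 CPM in knockout lungs. The others of their groups held 17.8 to 26.9 and 20.0 to 27.7 CPM.

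After silica the same pair was called over the earlier interval. At 3 months against 1 day Cyp1b1 averaged 17.8 ± 3.51 and 13.0 ± 3.15 CPM (SD, n = 12 each), a log2 fold change of 0.48 ± 0.12 (adjusted p = 0.0137, edgeR), and Cyp1a1 averaged 5.77 ± 1.91 and 10.0 ± 4.52 CPM, a log2 fold change of -0.81 ± 0.25 (adjusted p = 0.0408). Fmo2 was the third member called, with 906 ± 118 CPM at 3 months and 1119 ± 202 CPM at 1 day and a log2 fold change of -0.31 ± 0.09 (adjusted p = 0.0301). These were 3 of 9 members, against 4.38% of all 13252 genes. Leaving out 1 library ended the call of Cyp1a1 in 13 of 70 fits, each without a silica mouse of these times, with adjusted p up to 0.0868, and voom quality weights gave 0.0836. It ended that of Fmo2 in 7 such fits, with adjusted p up to 0.0829, and that of Cyp1b1 in none. In air over the same interval no member was called, with 0.113% of genes called, 2 members with an unadjusted p under 0.05, and 1 member (Ces1f) called by voom and 0 by DESeq2. Over all genes voom called 132 there and DESeq2 26, against 15 by edgeR. The estimates there were 0.10 ± 0.12 for Cyp1b1 and -0.25 ± 0.20 for Cyp1a1.

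Whether silica and air mice differed in these courses was tested directly, and no member passed. Between 3 months and 1 day the silica effect differed by 0.37 ± 0.17 for Cyp1b1 (adjusted p = 0.728, edgeR), the 1 member with an unadjusted p under 0.05, where 0.0755% of genes were called. Between 9 and 3 months it differed by 1.14 ± 0.38 for Cyp1a1 (unadjusted p = 0.00332, adjusted p = 0.126) and by -0.48 ± 0.16 for Cyp1b1 (unadjusted p = 0.00453, adjusted p = 0.143), where 0.732% of genes were called. The Cyp1a1 difference includes the knockout air mouse of 3 months at 33.4 CPM, and its value without that mouse is not given here. Without the 3 air mice with high Chil3 the difference for Cyp1b1 was -0.42, and the adjusted p was 0.589 for Cyp1a1 and 0.605 for Cyp1b1.

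Cyp2a5, the mouse coumarin and nicotine hydroxylase (chr7:26835305-26843548, plus strand), was the member that rose late in both exposures. After silica it averaged 95.4 ± 24.3 CPM at 9 months (n = 11) and 53.3 ± 21.0 CPM at 3 months (n = 12), a log2 fold change of 0.83 ± 0.19 (adjusted p = 0.00160, edgeR). It was the 1 member called, with 11.6% of genes called, and the call held with each of 70 libraries left out. In air it averaged 87.4 ± 29.0 CPM at 9 months and 64.2 ± 30.0 CPM at 3 months, a log2 fold change of 0.47 ± 0.19 (adjusted p = 0.0465) that was lost in 28 of 70 such fits, with adjusted p up to 0.133, among them fits without mice of other groups. It was also lost with DESeq2's Wald test (adjusted p = 0.0797) and with no low-count filter (0.0600). The call held without the 3 air mice with high Chil3, at an estimate not given here. Fmo2 was lower at 9 months than at 3 months in air, by a log2 fold change of -0.25 ± 0.09 (adjusted p = 0.0343), and without the 3 mice with high Chil3 the estimate was -0.10 with adjusted p = 0.498. Leaving out wildtype air replicate 5 or knockout air replicate 4 of 9 months alone gave -0.19 or -0.20 with adjusted p = 0.114 or 0.0816, and leaving out 1 of 4 air mice of 3 months gave adjusted p from 0.0510 to 0.0608. With voom quality weights it was 0.104. Ces1d, Por, Cyp2b10 and Cyp4b1 were called in none of the 4 comparisons over time.

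**Figure D3:**
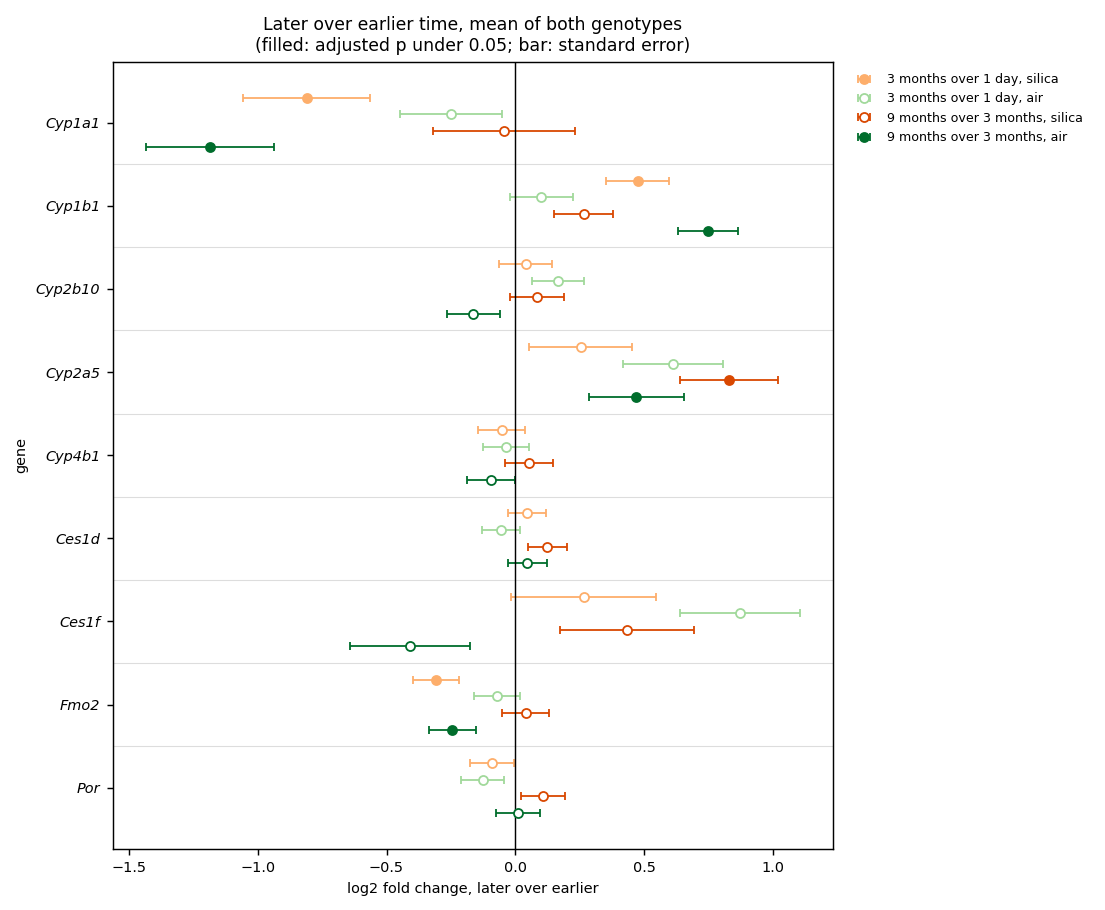
Log2 fold changes of the later over the earlier time (horizontal axis), as the mean of both genotypes, for the 9 enzymes (vertical axis) after silica and in air; bars are standard errors and filled points have an adjusted p under 0.05. Cyp1b1 and Cyp1a1 lie on opposite sides of 0 from 1 day to 3 months after silica (0.48 and -0.81) and from 3 to 9 months in air (0.75 and -1.19), and Cyp2a5 is above 0 from 3 to 9 months in both.

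Markers of many cell types also differed between 9 and 3 months. All 6 ciliated markers were higher in air at 9 months, with a summed level of 519 to 817 CPM in knockout and 537 to 769 CPM in wildtype lungs, against 357 to 533 and 404 to 534 CPM at 3 months. All 7 macrophage markers were higher and 7 of 10 endothelial markers lower in the same comparison. Endothelial markers summed to 2647 to 3274 CPM in knockout and 2079 to 3609 CPM in wildtype air lungs at 9 months, against 3986 to 4322 and 4021 to 4398 CPM at 3 months. In air 5 of 5 neutrophil markers and 5 of 7 club cell markers tested were higher at 9 months, and 7 of 8 fibroblast and 4 of 6 smooth muscle and pericyte markers were lower. After silica 4 of 6 ciliated and 6 of 7 macrophage markers were higher at 9 months than at 3 months, and 6 of 10 endothelial and 6 of 8 fibroblast markers were lower. The club cell genes Scgb1a1 (0.47 ± 0.10), Cyp2f2 (0.39 ± 0.09) and Hp (0.26 ± 0.07) were higher in that comparison, in which Cyp2a5 rose. Marker calls and sums in air at 9 months include the 3 mice with high Chil3 and were not made without them. The part of these markers in the courses of Cyp1b1, Cyp2a5 and Cyp1a1 was not tested.

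Around these members, 9 lists of related genes held 169 other genes of xenobiotic metabolism, chosen for their roles. Of the 113 tested at 3 months, silica in knockout lungs called 3 higher and 7 lower, beside 4.8% of all genes called. Median log2 fold changes of the 9 lists ran from -0.23 to 0.03 there, against 0.0016 over all genes. The lower ones were the receptor Ahr (-0.38 ± 0.10), the glutathione transferases Gstm1 (-0.42 ± 0.10) and Gstm2 (-0.44 ± 0.10), the paraoxonase Pon1 (-0.49 ± 0.13), the esterase Ces1g (-1.14 ± 0.26), the aldehyde oxidase Aox1 (-0.33 ± 0.08) and the club cell P450 Cyp2f2 (-0.37 ± 0.11). The higher ones were the P450 genes Cyp4v3 (0.33 ± 0.09) and Cyp7b1 (0.70 ± 0.21) and the carrier Abcc5 (0.24 ± 0.07). In wildtype lungs at 3 months Cyp4v3 (0.35 ± 0.09) and the sterol demethylase Cyp51 (0.52 ± 0.14) were higher, and the methyltransferase Inmt (-0.32 ± 0.08) and Pon1 (-0.43 ± 0.12) lower.

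At 1 day the 113 related genes gave 1 higher and 2 lower in knockout lungs after silica, beside 1.93% of all genes called, Cyp4v3 (0.38 ± 0.09) against Cyp2f2 (-0.27 ± 0.07) and the aldehyde oxidase Aox3 (-0.33 ± 0.08). In wildtype lungs, where 2.37% of all genes were called, they gave 2 higher, haem oxygenase Hmox1 (0.56 ± 0.14) and the aldo-keto reductase Akr1b8 (0.54 ± 0.15), and 2 lower, Cyp2f2 (-0.37 ± 0.07) and the aldehyde dehydrogenase Aldh2 (-0.33 ± 0.09). Of 115 tested at 9 months none passed for silica in either genotype by edgeR, and none passed for genotype or for the genotype difference in silica effect at any time. Between 9 and 3 months 23 were higher and 11 lower of 120 in air, where 29.2% of all genes were called, a like share. After silica 23 were higher and 2 lower, where 11.6% of all genes were called. Ahr was among those lower in air, at -0.35 ± 0.07 (adjusted p = 5.59e-05, edgeR).

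Among mice of the same group the members tended to vary together, as the plot of within-group covariation shows. Pearson's r of log2(CPM + 1) deviations from group means was above 0 in all 36 pairs over 70 lungs, and it is given as a description, since all values of a lung share its library and scaling. It was highest for Cyp2a5 with Por (0.75), Cyp2b10 with Por (0.75) and Cyp4b1 with Ces1d (0.73). Without the 5 libraries that stand apart it was above 0 in 31 pairs and below 0 in 5, all 5 with Ces1f (with Fmo2 -0.19, Cyp2b10 -0.18, Ces1d -0.11, Cyp4b1 -0.07 and Cyp2a5 -0.0040). The 3 pairs highest over 70 lungs then had 0.72, 0.66 and 0.24 over 65 lungs, so the tie of Cyp4b1 with Ces1d rested on those libraries. Over all 70 lungs with the group differences kept in, Cyp1a1 and Cyp1b1 gave r = -0.37, against 0.19 within groups.

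**Figure D4:**
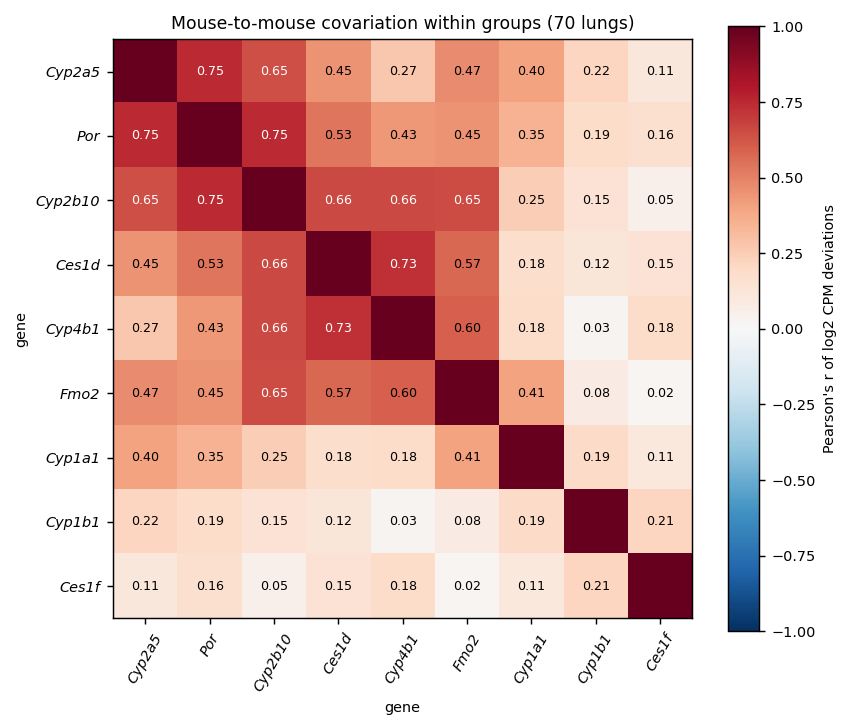
Pearson's r between each 2 enzymes (both axes) over 70 lungs, computed on log2(CPM + 1) deviations from the mean of each mouse's group; red is positive and blue negative. The 6 members at the upper left (Cyp2a5, Por, Cyp2b10, Ces1d, Cyp4b1 and Fmo2) have 0.27 to 0.75 among themselves, and Cyp1a1 has 0.35 to 0.41 with Fmo2, Cyp2a5 and Por. Ces1f (0.02 to 0.21) and Cyp1b1 (0.03 to 0.22) have low values with every other member.

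By the same measure over 70 lungs, without centring on groups, the genes most like each member outside the set were the following. Cyp4b1 followed Igfbp6 (r = 0.82), Pxdc1 (0.80) and Pdlim2 (0.78), and Fmo2 followed Myzap (0.81), Fhl1 (0.80) and Sdpr (0.79). Por followed the carbonyl reductase gene Cbr2 (0.81), Alas1 (0.74), the first enzyme of haem synthesis, and Selenbp1 (0.73). Cyp2b10 followed Selenbp1 (0.79), Rusc2 (0.75) and Otud7b (0.74), and Ces1d followed Cbr2 (0.71), Mettl7a1 (0.68) and the alveolar type 1 gene Ager (0.63). Cyp1b1 followed Iqcg (0.79), Aldh3b1 (0.70) and the ciliary dynein gene Dnah9 (0.70), and Cyp2a5 followed Cdhr3 (0.72), the ciliary dynein gene Dnah5 (0.72) and Six4 (0.71). Cyp1a1 followed Bmpr2 (0.64), Pgm5 (0.64) and Kif13a (0.64), and Ces1f had the weakest likeness, 0.49 with Serpina3k, Penk and Fabp1. Within groups and without the 5 libraries, r was still 0.81 for Por with Cbr2, 0.78 for Cyp4b1 with Igfbp6 and 0.75 for Fmo2 with Myzap, and it was -0.07 for Cyp1b1 with Aldh3b1. It was 0.19 for Cyp1b1 with Dnah9, 0.26 for Ces1d with Ager, 0.32 for Ces1d with Mettl7a1 and 0.27 for Cyp1a1 with Bmpr2.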

How the data were processed

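The data were whole-number counts per gene from rRNA-depleted, stranded total RNA libraries of lung, in 1 deposited table of 24439 rows. Per the submitters' processing notes, the tools were HISAT2 2.1.0, HTSeq 0.11.2, SAMtools 1.8, Cufflinks, Trimmomatic 0.35 and bcl2fastq 2.19, with mm10 as the build, while the annotation and strand setting are not given in the sources used here. The deposited counts were used as they stood, after 19 identical repeat rows were dropped. Strand-overlapping genes cannot be resolved without that setting.

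Each time was fitted with its 4 groups by edgeR 4.0.16 (R 4.3.3; filterByExpr, TMM, quasi-likelihood), and comparisons over time in 1 model of 70 libraries, without blocks, since animal numbers are unique to each mouse. A call is an adjusted p under 0.05 (Benjamini-Hochberg over all genes tested). Counts of members at an unadjusted p under 0.05 are not results about the members, since the share of all genes at that limit was not computed. The standard error was taken as the size of the log2 fold change divided by the root of its F statistic. In all there were 21 comparisons. Alternatives used DESeq2 1.42.0, limma 3.58.1 (voom), other filters, scalings and sample sets, and each library left out. The scripts recovered known changes in simulated counts before use, but the planted changes were larger than those called for Cyp4b1 and Fmo2. They were also larger than those called over time for Cyp1b1 after silica and Cyp2a5 in air. Recovery of changes as small as those was not checked. No pair of libraries of a group matched within counting noise (chi-square per degree of freedom 1.50 to 15.6).

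Named genes were all members, list genes past the threshold for silica (up to 4 a list by adjusted p) and the 3 most alike genes of each member. Chil3 and the marker genes named are outside that rule and were picked after their values were seen. Members, lists and tests were chosen with earlier results of these data known. Gene positions are GENCODE M21 and promoters RefSeq, both GRCm38. Per-kilobase values use combined exon length. Figures were drawn with matplotlib 3.10.9, and tables made with pandas 2.3.3 and numpy 2.4.6 under Python 3.11.15.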

Additional observations from a re-analysis of the deposited data

Results flagged for a closer look

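In 11 of 108 groups of 5 or 6 mice, counted over the 9 enzymes, 1 mouse lay far from the others by Dixon's test, and chance alone flags about 1 in 20 groups. For Cyp1a1 these were replicate 2 of knockout air at 3 months, at 33.4 CPM against 4.63 to 11.3 in the other 5 mice, and replicate 2 of knockout air at 1 day, at 19.7 CPM. For Cyp1b1 it was replicate 3 of knockout air at 3 months, at 19.5 CPM, and for Cyp2a5 replicate 4 of knockout silica at 9 months, at 150.7 CPM. Ces1d was low in replicate 3 of knockout silica at 1 day, at 267 CPM, and high in replicate 5 of wildtype silica at 9 months, at 541 CPM, the library that also had the highest Por of its group, at 239 CPM. Por was high in replicate 2 of wildtype silica at 1 day too, at 272 CPM, and Ces1f in replicate 2 of knockout silica at 1 day, at 8.04 CPM. Fmo2 was low in replicate 6 of wildtype silica at 3 months, at 802 CPM, and in replicate 5 of wildtype air at 9 months, at 595 CPM, which was 1 of the 3 mice with high Chil3.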

How the results depend on the processing

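Every log2 fold change called by edgeR kept its direction under all alternatives and all fits without a library. The number of members called changed as follows, with the main count in brackets. The number of all genes called is added where it differed more than 1.5-fold. With voom quality weights 2 members were called for silica in wildtype lungs at 1 day (0), and 2 in wildtype and 2 in knockout lungs at 3 months (1 and 4). There was 1 for knockout over wildtype in air at 3 months (0), and 1 for 3 months over 1 day in air (0). Over all genes voom called 761 for silica in wildtype lungs at 1 day (298) and 573 at 3 months (374). It called 108 genes for knockout over wildtype in air at 3 months (18) and 132 for 3 months over 1 day in air (15). DESeq2's Wald test also called 1 member for knockout over wildtype in air at 3 months, where it called 76 of all genes (18). With the spread estimated from all 70 libraries the members called were 0 for silica in knockout lungs at 1 day (1). They were 0 in wildtype lungs at 3 months (1) and 2 in knockout lungs at 3 months (4). All genes called at 3 months were 190 in wildtype (374) and 306 in knockout lungs (607). With the compared groups alone the members called for silica at 1 day were 1 in wildtype (0) and 0 in knockout lungs (1). At 3 months they were 3 in wildtype (1) and 1 in knockout lungs (4), and for knockout over wildtype in air at 1 day 1 (0). Over all genes these fits called 641 in wildtype (298) and 122 in knockout lungs (242) for silica at 1 day. They called 319 in knockout lungs for silica at 3 months (607), and 125 for knockout over wildtype in air at 1 day (6). Without the 3 air mice of 9 months with high Chil3, a setting chosen after seeing the data, 1 member was called for silica in wildtype lungs at 9 months (0). In that fit 211 of all genes were called (3). Smaller changes were a fall to 2 with voom for 3 months over 1 day after silica (3), and to 3 for silica in knockout lungs at 3 months with a filter at a mean of 1 CPM (4). For 9 over 3 months in air it was 3 with DESeq2's Wald test, no low-count filter, voom or without the 3 mice (4). The cause of these changes was not tested.

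With 1 library left out, the number ranged from 0 to 1 for silica in knockout lungs at 1 day, 1 to 3 in wildtype and 2 to 4 in knockout lungs at 3 months, 0 to 1 for knockout over wildtype in air at 3 months, 1 to 3 for 3 months over 1 day after silica and 2 to 4 for 9 over 3 months in air. It was constant in the other comparisons. Over all genes the calls for silica were 3 in wildtype and 23 in knockout lungs at 9 months, and 211 and 218 without those 3 mice; for 9 over 3 months in air they were 3875 and, without them, 2187. No paired analysis was possible because animal numbers are unique to each mouse. Depth limits Ces1f, Cyp1a1 and Cyp1b1 most.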
